A study of Mus musculus with 4 samples.

Results

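The cells described here are myogenic progenitor-like cells found in mouse inner ear organoids, and 1417 of 35853 kept cell barcodes (3.95%) were of this kind. They were chosen by measured counts. A barcode needed at least 500 detected genes, at most 10% of its unique molecular identifiers (UMIs, each standing for 1 captured transcript) from mitochondrially encoded genes, and at least 1 UMI in 3 or more of the 6 genes Pax7, Myf5, Fgfr4, Msc, Cdh15 and Chodl. It also needed 0 UMIs of Myog and less than 2% of its UMIs in 7 contractile genes summed (Acta1, Myl1, Myl4, Mylpf, Tnnc1, Tnnc2 and Tnnt3). The levels of these 14 genes in the chosen barcodes, called members below, are set by the choice and are given only as a description.

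Inner ear organoids are cultures grown as aggregates from mouse embryonic stem cells to make otic epithelium, and they hold other tissues too. The WT organoids came from R1/E stem cells of the strain cross 129X1x129S1, and the KO organoids from R1/E-Tmprss3KO-GFPKI, in which the serine protease gene Tmprss3 is knocked out and GFP knocked in. Each genotype gave 1 droplet-based 3′ single-cell library at day 25 and 1 at day 35, and the labels name no further treatment of either. Whether the KO line is a single clone, and how many organoids were pooled, was not stated in the labels used. Where 4 values follow each other below, they are in the order WT day 25, KO day 25, WT day 35, KO day 35. Because each group is 1 library, a genotype or a day cannot be told apart from a library, no test was made, and all intervals are exact 95% intervals that cover counting error only.

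Skeletal muscle progenitors carry the paired box factor Pax7 and the myogenic regulatory factor Myf5. In postnatal muscle, Pax7 marks satellite cells, the stem cells that lie under the basement membrane of each fibre. As progenitors commit they make Myod1 and then Myog (myogenin), and the fusogens myomaker and myomixer join them into fibres that fill with contractile proteins. Notch signalling, acting through Hes and Hey repressors, is known for holding progenitors back from that step.

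The 4 libraries gave 456, 636, 227 and 98 members. Their median depth was 6859.5, 6917.5, 3005 and 4545 UMIs, close to the 6166.5, 6371, 3089 and 4420 UMIs of all kept barcodes. The median mitochondrial share of members was 2.92%, 2.62%, 6.03% and 3.72%, highest in the WT library of day 35. Of the barcode sequences, 661 occurred in more than 1 library, 4 of them among members in a pair of libraries. Tmprss3, the targeted gene, had 18, 7, 8 and 5 UMIs over all kept barcodes and none in members. It was too rare to check the genotype labels, and 3′ reads may lie outside the deleted part.

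Pax7 was at 88.0, 93.9, 185 and 98.3 CPM, the usual scaled count: the UMIs of a gene relative to all UMIs of the members of that library. Myf5 was at 149, 188, 555 and 356 CPM. Chodl (chondrolectin, a lectin-like membrane protein) was at 217, 165, 771 and 321 CPM. Msc (musculin, a repressor of the myogenic factors) was at 227, 160, 70.2 and 43.3 CPM. Fgfr4, a fibroblast growth factor receptor of muscle progenitors, lay between 122 and 156 CPM, and Cdh15 (M-cadherin, an adhesion protein of satellite cells) between 138 and 224 CPM. In all other kept barcodes the 6 genes lay between 1.32 and 42.7 CPM. A shallower barcode needs a higher level to show 3 markers, so marker levels are not compared between days.

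Near the threshold, 194, 281, 168 and 74 members had exactly 3 of the 6 markers. Just outside it, 262, 378, 255 and 105 barcodes met every other criterion with exactly 2. UMIs of both Pax7 and Myf5 were found in 29.8%, 35.5%, 37.9% and 35.7% of members. Members with neither of these made up 18.2%, 11.8%, 5.29% and 8.16%, and entered through the other markers.

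Several muscle lineage genes that the rule did not use were also seen more often in members than in epithelial barcodes. Shares of barcodes with a UMI were compared after thinning each barcode to 2000 UMIs, which left out 21 shallower members of the WT library of day 35 and none elsewhere. Barcodes with 3 or more of the epithelial genes Epcam, Cdh1, Cldn7, Krt8, Krt18 and Esrp1 served as a reference for free RNA. Their median depth before thinning was 8756.5, 9045, 3887 and 5807 UMIs. Desmin (Des), the intermediate filament of muscle cells, was seen in 37.3%, 42.3%, 35.0% and 42.9% of thinned members, against 8.01%, 6.92%, 7.33% and 1.18% of epithelial barcodes. The laminin receptor gene Itga7 was seen in 5.92%, 8.81%, 5.83% and 13.3% of thinned members, against 0.823% to 1.47% of epithelial barcodes. Myod1, Myf6, Met, Vcam1, Heyl, Megf10 and Calcr also stood above the epithelial share in each of the 4 libraries. Without thinning, Des was seen in 48.0% to 79.1% of members and Itga7 in 11.5% to 26.6%.

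Some genes linked to muscle precursors did not stand above the epithelial share in every library. The heparan sulfate proteoglycan gene Sdc4 was seen in 19.1% to 37.8% of thinned members and in more epithelial barcodes, 44.8% to 56.0%. Pax3, which marks trunk and limb muscle precursors, was seen in at most 0.786% of thinned members. Without thinning, members held 7, 21, 2 and 0 Pax3 UMIs.

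Itm2a, a membrane protein gene of muscle precursors, is named here after its values were seen. It had a UMI in 99.3% of members of the WT library of day 25 and in 100% of members of the other libraries. After thinning the shares were 97.6%, 99.2%, 100% and 99.0%, against 30.4%, 30.5%, 21.4% and 11.9% of epithelial barcodes. In the WT library of day 25 its level was 3676 CPM (3614 to 3739) in members and 1226 CPM in the other barcodes.

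**Figure D1:**
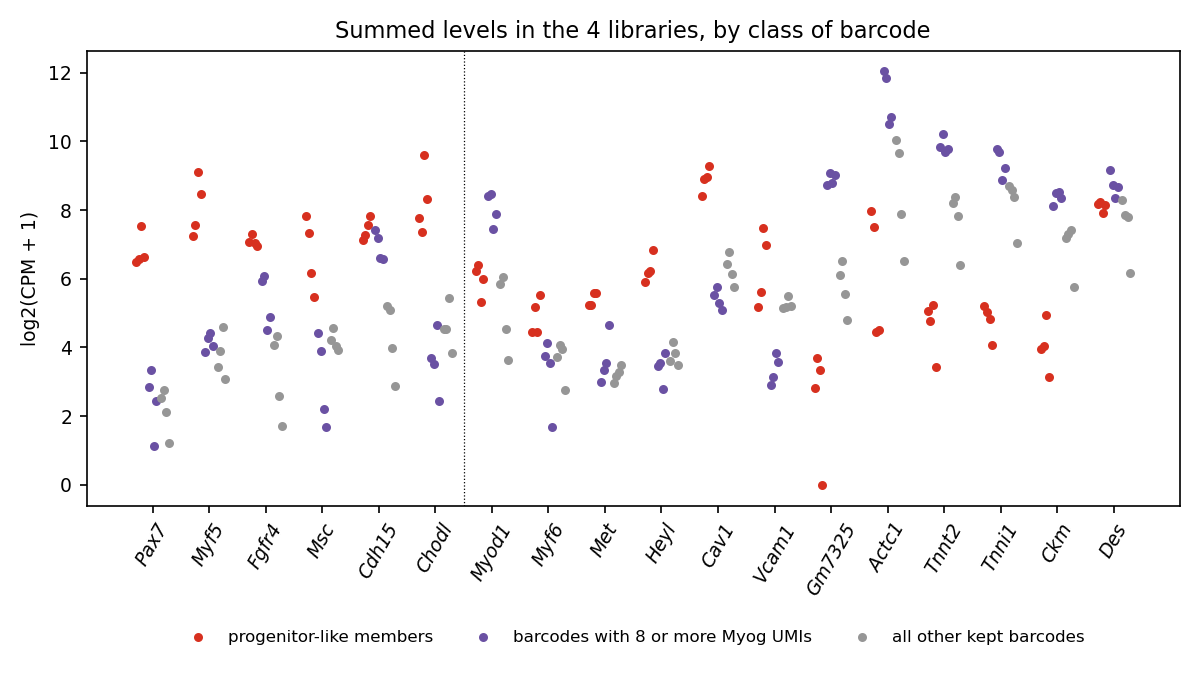
Summed levels as log2(CPM + 1) of 18 genes in members, in barcodes with 8 or more Myog UMIs and in all other kept barcodes, with 1 point per library. Genes left of the dotted line chose the members, and right of it Heyl, Cav1 and Vcam1 are higher in members than in the barcodes with 8 or more Myog UMIs in each library, while Myod1, Gm7325, Actc1, Tnnt2, Tnni1 and Ckm are lower.

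The Myog criterion removed more barcodes at day 25 than at day 35. Of barcodes with 3 or more markers and few contractile UMIs, 24.0%, 24.3%, 7.11% and 6.25% had only 1 or 2 Myog UMIs. Epithelial barcodes held 1 or 2 Myog UMIs in 26.2%, 31.5%, 8.46% and 4.17% of cases. The 2 sets of shares followed the same order of days. Those left out with 8 or more Myog UMIs numbered 71, 98, 5 and 2. Acta1, the skeletal actin gene, was seen in 21.9%, 19.2%, 38.8% and 17.3% of thinned members and in 23.6%, 17.4%, 40.6% and 13.2% of thinned epithelial barcodes. Without thinning the shares were 56.6%, 50.8%, 56.4% and 33.7% in members and 69.5%, 64.4%, 61.6% and 33.9% in epithelial barcodes. Acta1 is one of the genes that the rule limits, so these shares are a description.

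The share of members among kept barcodes was 4.67% (4.26 to 5.11), 5.68% (5.26 to 6.13), 2.78% (2.43 to 3.16) and 1.46% (1.18 to 1.77). Both libraries of day 35 lay below both of day 25, and the KO library of day 35 was lowest. The ratio of KO to WT was 1.22 (1.08 to 1.38) on the earlier day and 0.524 (0.409 to 0.667) on the later. From day 25 to day 35 the ratio was 0.595 (0.506 to 0.700) in WT and 0.256 (0.205 to 0.317) in KO.

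Depth and mitochondrial content differed along with these shares. When each barcode was thinned to 2000 UMIs before the rule was applied, the shares were 1.46%, 1.45%, 1.58% and 0.431%. The ratio of KO to WT was then 0.989 (0.785 to 1.25) at day 25 and 0.272 (0.175 to 0.412) at day 35, and the ratio of days in WT was 1.08 (0.840 to 1.39). On thinned barcodes, only the KO library of day 35 stood below the others. With a mitochondrial limit of 5% in place of 10%, 70 WT and 75 KO members remained at day 35, and their share ratio was 0.940 (0.669 to 1.32). The ratio of days in KO lay between 0.112 and 0.333 under the other settings tried.

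**Figure D2:**
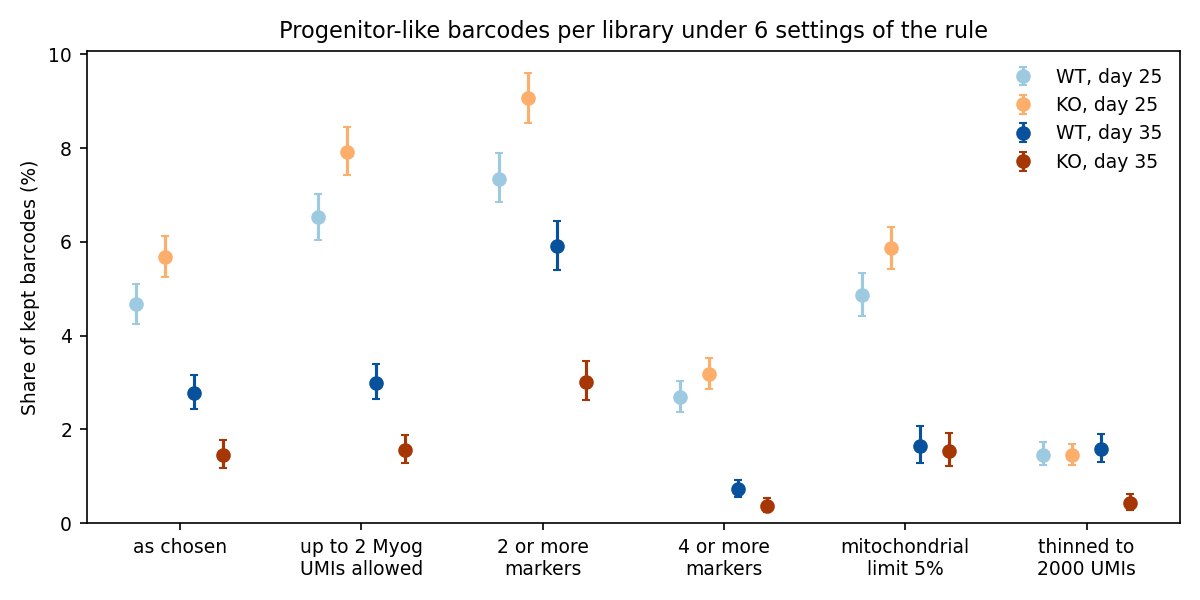
Share of kept barcodes (%) that were members in each library, as chosen and under 5 other settings, with exact 95% binomial intervals for counting error. The KO library of day 35 is lowest under each setting shown, and with the 5% mitochondrial limit its interval (1.21 to 1.93) overlaps that of WT (1.28 to 2.07).

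Relative to more advanced muscle barcodes of the same library, the picture depended on which ones were counted. Per barcode with 8 or more Myog UMIs there were 0.889, 0.762, 1.01 and 1.21 members. The ratio of day 35 to day 25 was 1.14 (0.968 to 1.34) in WT and 1.59 (1.27 to 1.97) in KO. Per barcode with 5% or more contractile UMIs there were 2.33, 3.20, 0.838 and 1.18 members, and the ratios of days were 0.360 (0.306 to 0.423) and 0.369 (0.296 to 0.458). The ratio of days thus lay above 1 against Myog-rich barcodes, with an interval that included 1 for WT, and below 1 against contractile ones. A limit of 8 UMIs is harder to reach in a shallower barcode, whereas the contractile limit is a percentage. The Myog-rich barcodes had median depths of 7854, 7441, 3284 and 5000 UMIs. These ratios were not repeated on thinned barcodes, and the part of depth in them was not tested.

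Compared with all other kept barcodes, 223 of 12205 genes outside the rule (1.83%) were at least 2-fold higher in members in all 4 libraries and 586 (4.8%) at least 2-fold lower. This contrast chose the members, so the counts describe them and support nothing. Dbx1, a homeobox gene known from neural progenitors, led the list, at 39.3, 54.6, 40.3 and 47.2 CPM in members and at 0.979 to 4.28 CPM elsewhere. Dmp1, an acidic matrix protein gene known from bone, was at 18.8, 41.1, 235 and 120 CPM. It was far higher in members of both libraries of day 35. The other genes among the first 10 were Ntn5 (a netrin), Iigp1 (an interferon-inducible GTPase), Sapcd1, Lfng (a glycosyltransferase that modifies Notch receptors), Mxd3 (a repressor of the Myc network), the histone gene Hist1h1b, Neil3 and Fam83d. Lowest against the others were the muscle fibre genes Mybph, Tnni1, Trdn, Cox6a2 and Tnnt2, with Gm6619, Bricd5, Hp, 5430401F13Rik and 1500015O10Rik.

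Against muscle barcodes further along, members had little of the fusion and sarcomere programme. With barcodes holding at least 1 Myog UMI as the comparison, 75 of 5967 genes (1.26%) were higher in members in all 4 libraries and 200 (3.35%) lower. Since epithelial barcodes often hold such a UMI, a comparison added after the data were seen used the 513, 835, 224 and 81 barcodes with 8 or more. There, 69 of 2596 genes (2.66%) were higher and 90 (3.47%) lower. These contrasts, too, use the Myog criterion of the rule.

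Myomaker, listed as Tmem8c, was at 6.64, 6.78, 3.90 and 5.90 CPM in members and at 310 to 382 CPM in the Myog-rich barcodes. Myomixer, listed as Gm7325, was at 6.09, 12.0, 9.10 and 0 CPM in members, against 426 to 545 CPM. Both fusogen genes were low in members of every library and below their level in epithelial barcodes, except Tmem8c in the KO library of day 35. Of 25 sarcomere genes outside the rule, 11 could be compared and 10 were at least 2-fold lower in all 4 libraries, with medians of -3.00, -2.85, -3.31 and -3.73 on the log2 scale. Des was the exception. Myod1 was at 73.3, 83.9, 39.0 and 62.9 CPM in members and at 339, 350, 175 and 236 CPM in Myog-rich barcodes. Of 24 myogenic regulators, 8 could be compared, of which Myod1, Mef2a, Mef2c and Hes6 were lower and Heyl was higher.

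Genes of the progenitor surface and the Notch target gene Heyl were higher in members than in Myog-rich barcodes. Cav1 (caveolin-1, a coat protein of membrane pits, also found in quiescent satellite cells) was at 341, 482, 502 and 618 CPM in members and at 33.1 to 53.3 CPM in the Myog-rich barcodes. Vcam1, an adhesion receptor used to sort satellite cells, was at 35.4, 48.5, 176 and 126 CPM, against 6.56 to 13.2 CPM. Heyl was at 59.5, 70.2, 74.1 and 114 CPM, against 5.99 to 13.2 CPM. In none of these did the ranges overlap. Of 20 satellite cell genes, 8 could be compared, and Vcam1, Cav1, Gpx3 and Col15a1 were at least 2-fold higher in all 4 libraries and none lower. The first 10 genes of this contrast also held Tagln, Tagln2, Crip1, Islr, Mgp, Sostdc1 and Mdfic.

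Notch3, a receptor gene, was at 50.4, 59.0, 68.9 and 47.2 CPM in members, against 3.59 to 6.22 CPM in Myog-rich barcodes. Hey1, another target gene, was at 42.6, 51.2, 36.4 and 33.4 CPM, against 6.56 to 15.6 CPM. Both had too few UMIs for the minimum in this contrast. Of 19 Notch pathway genes, 5 could be compared with Myog-rich barcodes, and 1 of them, Heyl, was at least 2-fold higher in all 4 libraries and none lower. Against all other barcodes, the contrast that chose the members, these were Heyl, Hey1, Lfng and Notch3 of 16 genes.

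Many members carried cell cycle transcripts. After thinning, UMIs in 3 or more of 31 G2 and M phase genes were found in 46.7% (42.1 to 51.4), 55.0% (51.1 to 58.9), 35.4% (28.9 to 42.4) and 34.7% (25.4 to 45.0) of members. Epithelial barcodes gave 13.1%, 10.5%, 2.92% and 13.5%. Without thinning the shares in members were 72.1%, 77.4%, 37.0% and 46.9%. All other kept barcodes, not thinned, gave 47.4%, 49.4%, 13.7% and 28.1%. Against all other barcodes, 27 of 29 G2 and M phase genes and 10 of 30 S phase genes were at least 2-fold higher in members in all 4 libraries. Against Myog-rich barcodes only 1 of 16 G2 and M phase genes and 2 of 6 S phase genes were, and none lower. No barcode was assigned to a phase.

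Members were also compared among themselves. Between members with Myf5 alone (145, 221, 97 and 48) and those with Pax7 alone (92, 114, 32 and 7), 0 of 1927 other genes were 2-fold apart in the same direction in all 4 libraries. Between members with and without a Myod1 UMI, 0 of 3217 were. The small groups limit what such a comparison can show. Members with 3 or more G2 and M phase genes had 98 of 3194 other genes at least 2-fold higher, led by the division genes Pbk, Prc1 and Cenpa and the ribonucleotide reductase gene Rrm2. The 1 gene at least 2-fold lower was Gpx3. These members were also deeper, with medians of 7900 against 5275 UMIs in the WT library of day 25.

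Markers of most other cell types were lower in members than in the other barcodes. Summed over 6 fibroblast or mesenchyme markers, members stood at 686, 900, 703 and 1137 CPM and the other barcodes at 3224, 4444, 3009 and 3349 CPM. Of 4 smooth muscle or pericyte markers, 2 could be compared. Tagln was at 105, 114, 247 and 173 CPM in members and at 28.5 to 45.7 CPM in the other barcodes. Acta2 was at 445, 554, 294 and 584 CPM, against 129 to 388 CPM in the other barcodes and 1202 to 2146 CPM in Myog-rich barcodes. The other 2 markers had 0 UMIs in members of both libraries of day 35. Markers of endothelium summed to at most 5.26 CPM in members and those of immune cells to at most 5.98. Between 7.93% and 22.8% of members held 3 or more fibroblast markers, against 37.6% to 61.2% of the other barcodes. Those members were deeper, at 10203 against 6448 UMIs in the WT library of day 25, and had 19 of 3213 other genes at least 2-fold higher, among them Col1a2, Cxcl12, Mmp2 and Serpinf1. In all, 93, 156, 26 and 17 members held 3 or more markers of at least 1 of 13 other lineages. Whether such barcodes hold more than 1 cell was not tested.

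Between days, stress and immediate early genes stood out in members. In WT, 690 of 6992 genes (9.87%) were at least 2-fold higher at day 35 and 582 (8.32%) at least 2-fold lower, 506 of these with an interval without 0. In KO, 545 of 7732 (7.05%) were higher, 527 with such an interval, and 573 (7.41%) lower, 288 with such an interval. Of 22 measured immediate early and heat shock genes, 15 were at least 2-fold higher in each genotype and none lower. Their median log2 ratio was 1.61 in WT and 1.47 in KO, against 0.04 and 0.06 over all genes.

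Fos, an AP-1 transcription factor gene, was at 694, 789, 4360 and 3331 CPM, with log2 ratios of 2.65 (2.58 to 2.73) in WT and 2.08 (2.00 to 2.16) in KO. Junb, which encodes a partner of Fos, was at 599, 720, 3997 and 3105 CPM, and Jun at 306, 236, 1458 and 1257. For each of them both libraries of day 35 were far above both of day 25. The antiproliferative gene Btg2 (192, 129, 805 and 765 CPM), the phosphatase gene Dusp1 (62.2, 44.5, 224 and 289 CPM) and the chaperone gene Hspa1a (4.98, 9.97, 71.5 and 110 CPM) followed the same order. In the other barcodes the list was also higher at day 35, by less, with medians of 0.99 and 0.80. Epithelial barcodes had Fos at 1417, 1701, 3789 and 3037 CPM. The part that cell dissociation had in this was not tested.

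Metallothioneins, which bind zinc and other metals, were higher at day 35 too. Mt1 was at 712, 591, 3952 and 1795 CPM, with ratios of 2.47 (2.40 to 2.55) in WT and 1.60 (1.49 to 1.71) in KO. All 3 measured genes were at least 2-fold higher in WT and 2 of 3 in KO, with medians of 2.47 and 1.35. In the other barcodes these genes were also higher at day 35, by less, with medians of 1.11 and 0.82. Epithelial barcodes had Mt1 at 1666, 2002, 4367 and 2434 CPM. Of interferon and antigen presentation genes, 5 of 8 measured in WT and 3 of 9 in KO were at least 2-fold higher and none lower, with medians of 1.18 and 0.97. In the other barcodes the medians of this list were 0.47 and 0.24. Over all genes, 9.87% in WT and 7.05% in KO were at least 2-fold higher in members.

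**Figure D3:**
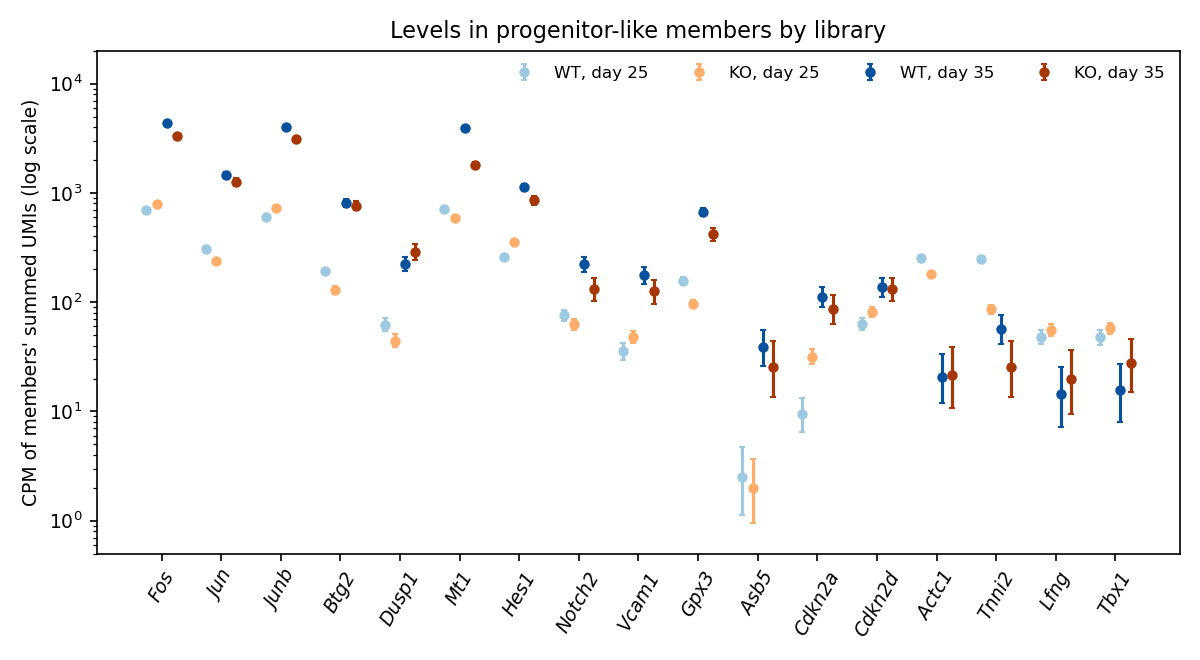
Levels (CPM of the summed UMIs of members, log scale) of 17 genes in the 4 libraries, with exact 95% Poisson intervals. The genes from Fos to Cdkn2d are higher in both libraries of day 35 than in both of day 25, and Actc1, Tnni2, Lfng and Tbx1 are lower.

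Several satellite cell genes were higher in members at day 35. Of 17 measured, 3 in WT and 5 in KO were at least 2-fold higher, and 1 in KO was lower. Over all genes, 9.87% in WT and 7.05% in KO were higher, and 8.32% and 7.41% lower. The medians of the list were 0.55 and 0.36, against -0.07 and -0.54 in the other barcodes. Vcam1 had log2 ratios of 2.31 (1.95 to 2.67) and 1.38 (0.96 to 1.78), against 0.37 and 0.02 in the other barcodes. Gpx3, an extracellular glutathione peroxidase gene, was at 155, 96.7, 667 and 419 CPM, with ratios of 2.11 (1.93 to 2.28) and 2.12 (1.88 to 2.35). Asb5, a ubiquitin ligase adaptor gene, was at 2.49, 1.99, 39.0 and 25.6 CPM, and Calcr, the calcitonin receptor gene of quiescent satellite cells, at 4.43, 3.19, 19.5 and 7.87 CPM. Both had too few UMIs for the minimum of 50 over 2 libraries. Cd34, a sialomucin gene of satellite and vessel cells, was the lower one in KO, at -1.37 (-2.45 to -0.47). A shallower barcode needs a higher level to show 3 markers, and the Myog criterion removed more barcodes at day 25. The rule may therefore choose differently on the 2 days. Its part in the differences between days, for these genes and for the muscle and Notch genes below, was not tested.

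Among the Notch pathway genes, Notch2, a receptor gene, was at 75.5, 62.8, 222 and 132 CPM, with ratios of 1.56 (1.27 to 1.84) and 1.07 (0.67 to 1.45). Hes1, a repressor induced by Notch, was at 258, 354, 1132 and 855 CPM, and in epithelial barcodes at 319, 304, 569 and 545 CPM. Lfng went the other way, at 48.4, 55.8, 14.3 and 19.7 CPM, with ratios of -1.76 (-2.79 to -0.88) and -1.50 (-2.58 to -0.60). In all, 2 of 9 measured genes in WT and 2 of 13 in KO were at least 2-fold higher, and 1 and 2 lower. The shares over all genes were 9.87% and 7.05% higher, and 8.32% and 7.41% lower. So short a list cannot be told apart from these shares.

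Of the myogenic regulators, 2 of 14 measured in WT and 2 of 16 in KO were at least 2-fold lower at day 35 and none higher. Over all genes, 8.32% in WT and 7.41% in KO were lower, and so short a list cannot be told apart from these shares. Tbx1, a regulator of head muscle, was lower in both genotypes, at 47.6, 57.4, 15.6 and 27.5 CPM. Myod1 had a ratio of -0.91 (-1.51 to -0.36) in WT and of -0.42 (-0.98 to 0.10) in KO. Of the sarcomere genes outside the rule, 5 of 15 measured in WT and 6 of 14 in KO were at least 2-fold lower, and 1 and 0 higher. Actc1, cardiac actin of immature muscle, was at 252, 180, 20.8 and 21.6 CPM in members and at 361, 281, 59.2 and 11.5 CPM in epithelial barcodes. The part of free RNA in these differences was not tested.

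G2 and M phase genes had median ratios of -0.05 in WT and -0.08 in KO, with 1 of 31 at least 2-fold higher in each and none lower. In the other barcodes the same median was -1.80 in WT but -0.19 in KO, so members stood apart from them only in WT. S phase genes had medians of -0.73 and -0.42, against -0.90 and 0.63 in the other barcodes. In members 10 of 28 in WT and 4 of 29 in KO were at least 2-fold lower (8.32% and 7.41% over all genes). Cdkn2a, which encodes the cell cycle inhibitors p16 and p19, was at 9.41, 31.7, 112 and 86.5 CPM, with ratios of 3.57 (2.98 to 4.19) and 1.45 (0.93 to 1.94). In KO it was already higher than in WT at day 25, by 1.75 (1.21 to 2.33). Cdkn2c was at 34.9, 71.2, 78.0 and 128 CPM, and Cdkn2d at 63.4, 81.3, 136 and 132 CPM. In each library Cdkn2c was higher in members with 3 or more G2 and M phase genes than in the rest, by 3.5 to 4.9 on the log2 scale. Of 6 measured inhibitors, 3 in WT and 1 in KO were at least 2-fold higher (9.87% and 7.05% over all genes) and none lower. Above 0 lay 4 in WT and 6 in KO, with medians of 0.74 and 0.77.

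**Figure D4:**
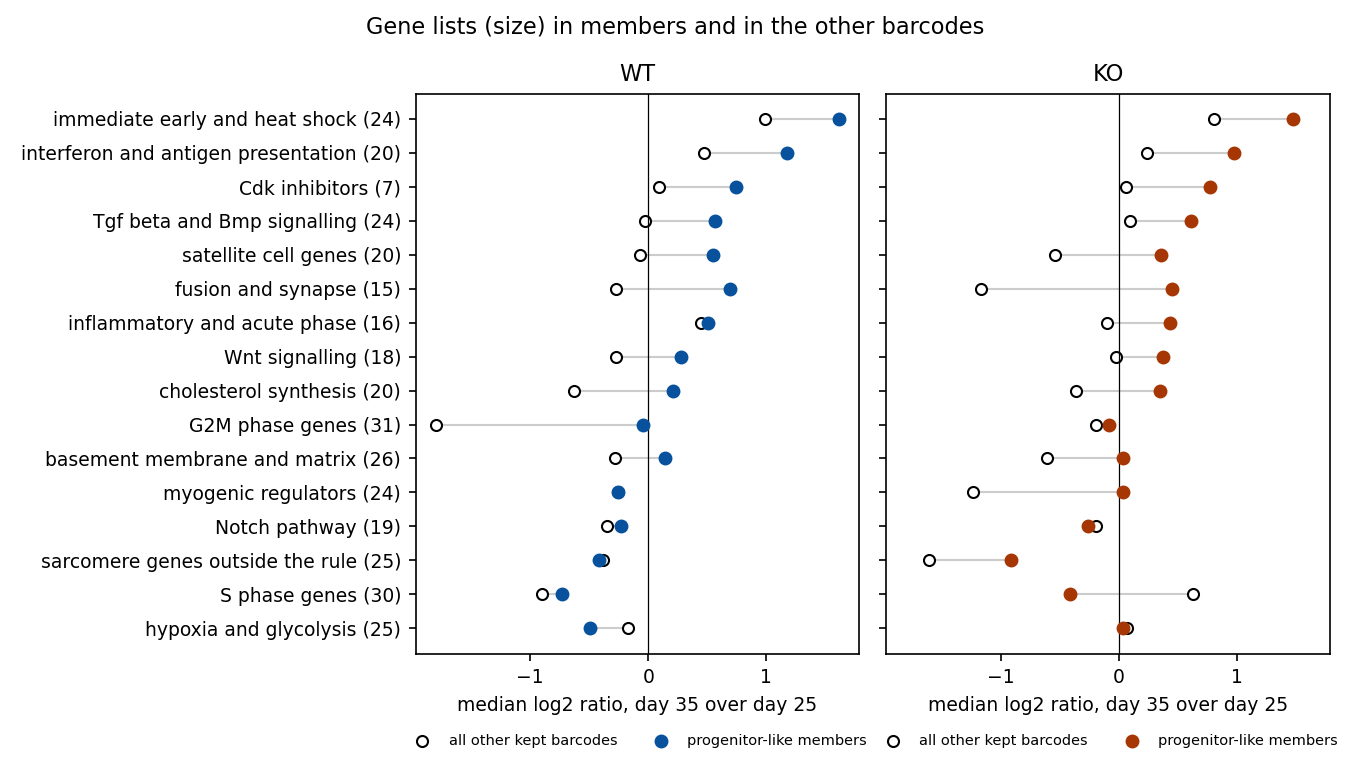
Median log2 ratio of day 35 over day 25 for 16 gene lists in members (filled) and in the other kept barcodes (open), over list genes with at least 50 UMIs in the members of the libraries compared. Of the lists plotted, immediate early and heat shock genes lie furthest to the right in members of both genotypes (1.61 and 1.47). G2M phase genes lie near 0 in members of both, and in the other barcodes at -1.80 in WT and -0.19 in KO.

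In both genotypes together, 262 genes were at least 2-fold higher and 112 at least 2-fold lower at day 35 with intervals without 0. Ranked by the bound nearest 0, the first 10 higher genes included C1qtnf3, Gadd45g, Hspa1a, Ecm1, Mia, Nupr1, Fbxo2, Abhd2 and Plat. C1qtnf3, a secreted protein gene of the C1q family, was at 4.43, 5.38, 112 and 108 CPM, with epithelial barcodes at 0.207 to 2.84 CPM. Gadd45g, a growth arrest gene, was at 34.0, 29.1, 671 and 322 CPM. For neither gene did the values of day 35 overlap those of day 25. Nupr1, a stress-induced chromatin factor gene, was at 136, 102, 901 and 834 CPM. Mia and Fbxo2 were higher in epithelial barcodes than in members of each library, as at 6554 against 146 CPM for Mia in the WT library of day 35, and 1 KO member of day 35 held 69 of 155 Mia UMIs.

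The first 10 lower genes were Hist1h2ap, Nnat, Fabp7, Actc1, Fabp5, Pgk1, Cysrt1, Rtn1, Nme2 and Gm10020. The histone gene Hist1h2ap was at 1489, 1286, 155 and 49.2 CPM, and as one of a family of near-identical copies its counts are uncertain. Fabp5, a fatty acid binding protein gene, was at 1061, 901, 178 and 171 CPM, and Pgk1, a glycolytic enzyme gene, at 574, 415, 104 and 74.7 CPM. Both were also lower at day 35 in the other barcodes of WT, Fabp5 at 304 against 1219 CPM and Pgk1 at 160 against 619 CPM. The neural gene Fabp7 and the gene Cysrt1 rested on few members. For Fabp7, 1 member of the WT library of day 25 held 110 of 321 UMIs and 1 of the KO library 208 of 505. For Cysrt1 these were 60 of 63 and 117 of 123. Nme2 and Gm10020 may share reads with near-identical loci.

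Between genotypes, 88 of 8948 genes (0.983%) were at least 2-fold higher in KO members at day 25 and 125 (1.4%) lower. At day 35, 47 of 3294 (1.43%) were higher and 58 (1.76%) lower. Without members that held markers of another lineage the counts of day 25 were 50 and 64, and with 4 or more markers required those of day 35 were 14 and 22. On both days 5 genes were higher in KO (H19, Ccl2, Mest, Serpinf1 and Ccl7) and 4 lower (Cdkn1c, Igf2, Atf3 and Tnni2). Of these, H19, Mest, Cdkn1c and Igf2 are imprinted genes, expressed from 1 parental allele.

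H19, a maternally expressed noncoding RNA (GRCm38 chromosome 7, 142575529 to 142578143, minus strand), was at 525, 2598, 139 and 1013 CPM. KO was above WT on each day, by 2.31 (2.24 to 2.38) and 2.86 (2.56 to 3.18) on the log2 scale. Igf2, the growth factor gene next to it (chromosome 7, 142650766 to 142666816, minus strand), was at 858, 54.4, 590 and 53.1 CPM, with ratios of -3.98 (-4.16 to -3.80) and -3.47 (-4.09 to -2.91). Cdkn1c, an inhibitor of cyclin-dependent kinases that is induced as muscle cells leave the cycle (chromosome 7, 143458339 to 143461050, minus strand), was at 1139, 25.7, 585 and 47.2 CPM. Its ratios were -5.47 (-5.73 to -5.22) and -3.63 (-4.29 to -3.04). Both genes were far lower in each KO library, where epithelial barcodes had Igf2 at 49.1 and 4.39 CPM and Cdkn1c at 58.2 and 70.0 CPM.

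The same genes differed in the same direction outside the members. In all other barcodes the ratios of KO to WT were 2.09 and 1.93 for H19, -2.29 and -3.31 for Igf2, and -3.67 and -2.63 for Cdkn1c. In Myog-rich barcodes Cdkn1c was at 2052, 85.0, 2516 and 128 CPM. Mest, a paternally expressed gene on chromosome 6, was at 1359, 2813, 555 and 2383 CPM in members, with ratios of 1.05 at day 25 and 2.102 (1.94 to 2.26) at day 35, against 0.99 and 1.25 in the other barcodes. Grb10, an imprinted adaptor gene on chromosome 11, was at 49.5 and 3.59 CPM at day 25 and had 2 and 0 UMIs at day 35. Igf2r, the receptor that clears Igf2, was at 34.3, 13.6, 49.4 and 1.97 CPM, the last from 1 UMI. Of the Igf axis and imprinted genes, 3 of 26 measured were at least 2-fold higher in KO and 6 lower at day 25, and 4 of 17 higher and 3 lower at day 35. Over all genes, 0.983% were higher and 1.4% lower at day 25, and 1.43% and 1.76% at day 35.

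Genes of secreted proteins made up the rest of those higher in KO on both days. Ccl2, a monocyte attractant gene, was at 8.85, 38.5, 10.4 and 134 CPM, with ratios of 2.12 and 3.68. In KO, 1 member held 77 of its 193 UMIs at day 25 and 1 of 7 members with any held 32 of 68 at day 35. Without the barcodes with the most UMIs its ratio at day 25 was -0.12. Ccl7 was at 19.1, 44.5, 14.3 and 153 CPM, and without members holding markers of another lineage its ratio at day 25 was 0.50, against 1.22 with them. For Ccl7, 1 KO member held 49 of 223 UMIs at day 25, and 1 of 15 with any held 32 of 78 at day 35. Serpinf1, a secreted serpin gene of fibroblasts, was seen in 192 KO members at day 25 and 55 at day 35, at 37.9, 91.9, 114 and 330 CPM. The fibroblast markers also summed to more in KO members than in WT members on each day, as given above, and their part in these differences was not tested.

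**Figure D5:**
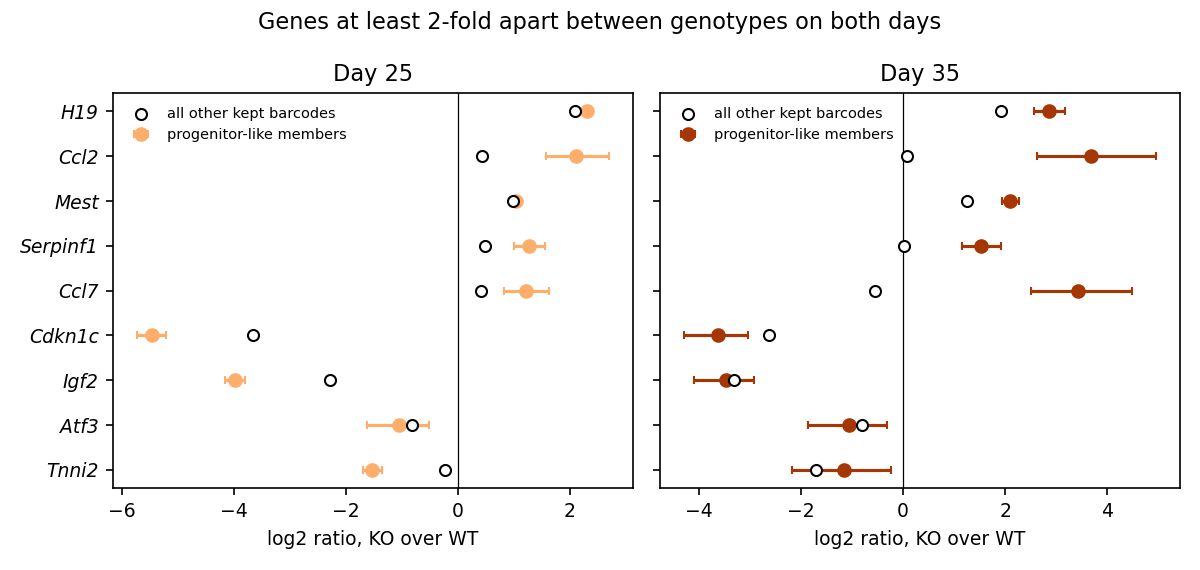
Log2 ratio of KO to WT on each day for the 9 genes at least 2-fold apart in the same direction on both days, in members (filled, with exact 95% intervals for counting error) and in all other kept barcodes (open). H19, Mest, Cdkn1c, Igf2, Atf3 and Tnni2 differ the same way in the other barcodes (Tnni2 by -0.22 and -1.71), where Ccl2, Ccl7 and Serpinf1 lie between -0.54 and 0.50.

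Among the genes lower in KO, Atf3, a stress-induced transcription factor gene, was at 19.9, 9.57, 81.9 and 39.3 CPM. Its ratio was -1.06 on each day and -0.82 and -0.80 in the other barcodes. Tnni2, a fast troponin gene, was at 248, 86.1, 57.2 and 25.6 CPM, with 94 of its 896 UMIs in the WT library of day 25 in 1 member. Epithelial barcodes had Tnni2 at 176, 157, 93.1 and 16.6 CPM. With 4 or more markers required, its ratio at day 35 was 0.28.

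Several genes named for a single day rested on single barcodes. At day 25 the adipocyte genes Retn and Cidec were higher in KO by 3.03 and 3.21, and lost the difference without the barcodes with the most UMIs. For Retn 1 KO member held 256 of 295 UMIs, and for Cidec 1 held 125 of 141. Otor and Krt15 were lower in KO. For Otor 1 WT member held 102 of 110 UMIs, and for Krt15 1 held 137 of 162. Cks1brt, a near copy of Cks1b whose counts are uncertain, had 48 UMIs in KO members and 3 in WT members. At day 35 the secreted protein genes Slpi and Rnase1 had 57 and 49 UMIs in WT members, and 1 and 2 UMIs in KO. For Slpi 1 WT member held 33 of them, and for Rnase1 1 held 38. Whether the same member led for both genes of such a pair was not examined. Sln (sarcolipin, a regulator of the muscle calcium pump) was at 92.3 CPM in WT and 11.8 in KO, near the 98.2 and 19.6 CPM of epithelial barcodes. Spp1, a secreted phosphoprotein gene, was higher in KO, at 67.6 against 285 CPM.

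None of 17 measured satellite cell genes at day 25, and none of 12 at day 35, was at least 2-fold apart between genotypes. Over all genes, 0.983% were higher in KO and 1.4% lower at day 25, and 1.43% and 1.76% at day 35. In lists this short, a count of none cannot be told apart from these shares. The same holds for the G2 and M phase genes below. Of 17 measured myogenic regulators at day 25, 2 were higher in KO and 1 lower, to be set against the shares over all genes just given. More of these regulators were thus higher in KO than lower. The lower one was Isl1, a regulator of head and heart muscle precursors, at 34.3 and 14.8 CPM, with a ratio of -1.22 (-1.65 to -0.79), and of -1.44 in the other barcodes. At day 35 it was at 48.1 and 13.8 CPM, below the minimum of UMIs. Of 5 measured regulators at day 35, 1 was higher and none lower. None of 31 G2 and M phase genes at day 25 and none of 24 at day 35 was at least 2-fold apart, but 30 of 31 at day 25 lay above 0 in KO, with a median of 0.37 against 0.00 in the other barcodes. At day 35, 16 of 24 lay above 0, with a median of 0.12.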

How the data were processed

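Droplet 3′ libraries of 4 organoid samples were used as the authors deposited them, in tables of raw UMI counts by gene and barcode. Tools listed by the submitters' processing notes are Cell Ranger 2.1.0, bcl2fastq, R 3.5.1 and Seurat 2.3.1, and the builds listed are GRCm38 and mm10, with no step assigned to any. Groups follow the labels. The members, lists and comparisons were chosen with earlier results of these data known.

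UMIs were summed over the members of each library (Python 3.11.15, NumPy 2.4.6, pandas 2.3.3, SciPy 1.17.1; figures with matplotlib 3.10.9). Levels have Poisson, shares Clopper-Pearson and ratios conditional binomial 95% intervals. Only the ratio intervals were tested, on simulated Poisson counts that leave out the uneven spread of UMIs over members. Ratios between libraries needed 50 UMIs over both, and a count of 0 was set to 3. Named genes for both days or both genotypes are up to 10 in each direction, at least 2-fold apart in both and ranked by the interval bound nearest 0, with 5 in each direction for a single day. For members against other barcodes they are the 10 in each direction with the largest minimum over 4 libraries. Listed genes and rule genes could be named besides. Tmprss3, Xist and mitochondrial, ribosomal protein and Y-linked genes were left out. Positions come from GENCODE vM21, where 27645 of 27998 genes were found. No doublet caller was run. As alternatives, barcodes with the most UMIs (0.8% per 1000 barcodes) or members with 3 or more markers of another lineage were removed, and the marker number, mitochondrial and contractile limits, gene minimum, depth, UMI minimum and centring were varied. Some named genes are not reported here.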

Additional observations from a re-analysis of the deposited data

Results flagged for a closer look

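Some differences pointed in opposite directions in the 2 genotypes or on the 2 days. With 1 library per group, the change of direction was not tested. The share of members in KO relative to WT was 1.22 at day 25 and 0.524 at day 35. Cdkn1c at day 35 relative to day 25 was -0.96 in WT, from 1139 CPM, and 0.88 in KO, from 25.7 CPM, on the log2 scale. Spp1 in KO relative to WT was -1.90 at day 25, where 1 WT member held 91 of 191 UMIs, and 2.08 at day 35, where 1 KO member held 36 of 145. Nnat in KO relative to WT was 0.13 at day 25 and -1.17 at day 35, with 34 UMIs in WT and 10 in KO on that day.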

How the results depend on the processing

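No paired analysis was possible because each group is 1 library, so no replicate could be left out either. Of the share ratios under other settings, 33 stayed within their counting interval, 9 moved and 2 reversed. The ratio of days in WT and KO was 0.803 and 0.333 with 2 or more markers, 0.269 and 0.112 with 4 or more, and 0.460 and 0.197 with at most 2 Myog UMIs, a setting chosen after seeing the data. With a 5% mitochondrial limit, KO to WT at day 35 was 0.940 and the ratio of days in WT 0.337. After thinning, KO to WT was 0.989 and 0.272, and the ratio of days in WT 1.08. Of the gene counts, 55 stayed within 1.5 times and 27 did not. With 20 UMIs as the minimum, KO to WT gave 228 higher and 358 lower at day 25 and 211 and 236 at day 35, the days gave 1082 and 1078 in WT and 973 and 950 in KO, and barcodes with any Myog UMI gave 129 and 346. With no minimum the counts were 594 and 874, 915 and 839, 1625 and 1290, and 1579 and 936. Without members holding markers of another lineage, KO to WT at day 25 gave 50 and 64, and 302 genes were lower than in barcodes with any Myog UMI. With 4 or more markers, KO to WT at day 35 gave 14 and 22, barcodes with any Myog UMI gave 46 and 127, and 207 genes were lower than in all other barcodes. With 8 or more Myog UMIs, also chosen after seeing the data, 90 were lower. Reversed ratios were Ccl2 at -0.12, and Retn, Cidec and the adipocyte median at -0.0089, all at day 25 without the barcodes with the most UMIs, and, with 4 or more markers, Tnni2 at day 35 (0.28), the epithelial median between days in KO (-0.16), the adipocyte median at day 25 (-1.41) and the Hox median between days (0.18 in WT, 0.35 in KO). Apart from construction (fewer members, fewer UMIs), the cause was not tested. Depth limits the libraries of day 35 most, where 227 and 98 members held 769320 and 508543 UMIs.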
